A study of Homo sapiens with 9 samples.

Results

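Metallothioneins and their zinc circuit were followed in hypoxic SW480 cells, a long-established line from a human colorectal tumour. The 7 genes were taken by name: the metallothionein genes MT1E, MT1F, MT1G, MT1X and MT2A, the zinc-sensing transcription factor gene MTF1 and the zinc exporter gene SLC30A1. They are 7 of the 41041 genes in the expression table, each found there by its Ensembl identifier. Poly(A) RNA was sequenced from 3 groups of 3 biological replicates, all held at 1% oxygen for 48 h: cells given sulforaphane with 5-fluorouracil (SFN+5-FU), cells given sulforaphane alone at 25 µM (SFN), and untreated hypoxic cells (control). Sulforaphane is an isothiocyanate from cruciferous vegetables, and 5-fluorouracil is a pyrimidine analogue used as a chemotherapy drug. The sources used here give neither the 5-fluorouracil dose nor the sulforaphane dose in the combination. The 9 libraries hold neither a normoxic group nor one on 5-fluorouracil alone, and all come from 1 cell line. Levels are in FPKM, fragments scaled for the length of the transcript and the size of the library. Levels of different genes set side by side also depend on the transcript lengths and the placing of fragments used by the authors. Neither is given in the sources used here.

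Metallothioneins are small, cysteine-rich proteins of the cytosol and nucleus that hold zinc and copper ions and react with electrophiles and oxidants. Free zinc binds the zinc fingers of MTF-1, which then enters the nucleus and switches on metallothionein genes and SLC30A1 through metal response elements (MREs) in their promoters. SLC30A1, also called ZnT1, carries zinc out across the plasma membrane, so the circuit stores and exports zinc that is in excess. In intestinal epithelium and in many tumours the metallothionein genes are also known to respond to hypoxia, glucocorticoids and oxidative stress.

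The metallothionein genes share most of their coding sequence, and the coding sequences of the 4 tested metallothioneins among the 7 genes are shown to make that visible. They were read from GENCODE release 29 transcripts on build GRCh38, chromosome 16, plus strand, with the stop codon left off. Capitals mark the bases at which MT1E, MT1X or MT1F differs from MT2A.
MT2A: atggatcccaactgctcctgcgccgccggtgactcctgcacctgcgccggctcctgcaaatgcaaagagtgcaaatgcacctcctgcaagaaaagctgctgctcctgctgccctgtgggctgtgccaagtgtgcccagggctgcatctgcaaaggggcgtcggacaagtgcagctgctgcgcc
MT1E: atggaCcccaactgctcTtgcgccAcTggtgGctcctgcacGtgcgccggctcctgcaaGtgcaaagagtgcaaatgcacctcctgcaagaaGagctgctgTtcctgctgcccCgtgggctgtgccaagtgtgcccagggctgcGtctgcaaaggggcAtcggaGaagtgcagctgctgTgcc
MT1X: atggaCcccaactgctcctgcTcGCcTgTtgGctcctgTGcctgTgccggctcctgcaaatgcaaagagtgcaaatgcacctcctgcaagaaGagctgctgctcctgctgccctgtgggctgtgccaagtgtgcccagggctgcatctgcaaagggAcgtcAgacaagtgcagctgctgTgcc
MT1F: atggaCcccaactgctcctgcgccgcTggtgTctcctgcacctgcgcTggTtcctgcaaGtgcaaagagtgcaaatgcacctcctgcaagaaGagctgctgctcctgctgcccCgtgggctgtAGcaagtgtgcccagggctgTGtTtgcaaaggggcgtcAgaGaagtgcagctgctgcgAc
All 4 coding sequences have 183 bases. MT1E and MT1X each differ from MT2A at 14 bases (92.3% identity) and MT1F at 16 (91.3%). MT1X and MT1F are the least alike of the 4, with 21 differences. The differences are spread along the sequence, and the longest run shared base for base with MT2A is 63 bases in MT1X and 32 in MT1E and in MT1F. Reads were 150 bases long at each end. Of all 150-base windows of the MT2A, MT1E, MT1F and MT1G transcripts, none occurs in a GENCODE transcript of another gene, while for MT1X 17 of 301 windows do. Those 17 also occur in AC026461.1, which is not analysed here. At 100 bases 67 of 351 MT1X windows were shared, again with AC026461.1. At 50 bases the shared windows came to 4.88% for MT2A, 5.34% for MT1E, 3.59% for MT1F, 20.2% for MT1G and 45.1% for MT1X. Fragments trimmed short or read with errors can therefore be placed on the wrong family member, and the authors' handling of such fragments is not given in the sources used here.

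The promoters of 4 of the 7 genes were matched in a RefSeq table (build GRCh38.p14), and the 250 bases before each start are shown because 3 of these genes rose in SFN+5-FU cells and 1, MT1X, fell. MT1E, MT1F and MT1G have no entry there. Capitals mark MRE cores, searched as TGCACNC and TGCGCNC on both strands. The windows lie at chr16:56608334-56608583 (plus strand) for MT2A, chr16:56682220-56682469 (plus strand) for MT1X, chr1:211579162-211579411 (minus strand) for SLC30A1 and chr1:37859593-37859842 (minus strand) for MTF1, and each is written in the direction of its gene.
MT2A: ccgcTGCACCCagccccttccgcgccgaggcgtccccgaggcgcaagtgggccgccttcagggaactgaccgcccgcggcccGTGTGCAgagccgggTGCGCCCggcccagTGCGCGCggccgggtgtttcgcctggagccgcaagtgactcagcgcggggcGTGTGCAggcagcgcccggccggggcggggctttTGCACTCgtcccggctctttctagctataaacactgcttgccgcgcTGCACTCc
MT1X: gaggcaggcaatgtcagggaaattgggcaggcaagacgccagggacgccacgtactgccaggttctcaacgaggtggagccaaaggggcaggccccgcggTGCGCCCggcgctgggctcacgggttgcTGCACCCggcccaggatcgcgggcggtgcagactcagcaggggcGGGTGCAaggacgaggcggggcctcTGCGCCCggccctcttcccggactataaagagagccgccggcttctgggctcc
SLC30A1: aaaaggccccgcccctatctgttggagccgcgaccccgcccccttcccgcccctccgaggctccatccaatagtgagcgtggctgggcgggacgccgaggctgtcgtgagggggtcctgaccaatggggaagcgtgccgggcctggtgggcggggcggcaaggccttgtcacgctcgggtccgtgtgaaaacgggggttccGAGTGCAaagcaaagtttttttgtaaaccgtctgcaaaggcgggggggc
MTF1: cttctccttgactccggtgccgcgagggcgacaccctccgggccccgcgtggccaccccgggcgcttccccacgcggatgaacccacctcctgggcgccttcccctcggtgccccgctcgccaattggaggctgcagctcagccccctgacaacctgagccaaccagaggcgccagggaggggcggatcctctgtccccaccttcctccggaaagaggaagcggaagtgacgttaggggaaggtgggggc
The MT2A window holds 7 MRE cores and the MT1X window holds 4. The SLC30A1 window holds 1 and the MTF1 window none. The windows follow RefSeq starts, and GENCODE places the start of SLC30A1 at base 211578742, downstream of its window. GENCODE places the start of MT2A at base 56608199, upstream of its window. For MT1X and MTF1 the GENCODE starts, at bases 56682424 and 37859620, fall inside the windows, whose last bases thus lie past those starts. Windows before the GENCODE starts were not searched. Of 35116 RefSeq windows of the same length, 24.8% hold at least 1 MRE core and 0.37% hold at least 4. The antioxidant response element core TGACNNNGC, bound by NRF2, has 1 match each in the MT2A, MT1X and SLC30A1 windows, against 10.9% of all windows with at least 1. The hypoxia response element core, searched as ACGTG and GCGTG, matches at 1 place in MT2A, 1 in MT1X, 3 in SLC30A1 and 2 in MTF1, and 43.2% of all windows hold at least 1. In MT2A 1 hypoxia element match overlaps an MRE core, and in SLC30A1 1 overlaps the antioxidant element match. The promoters of MT2A and MT1X, which moved in opposite directions as described below, both hold several MRE cores and 1 match of each other kind. These are matches of letters, and binding was not measured.

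**Figure D1:**
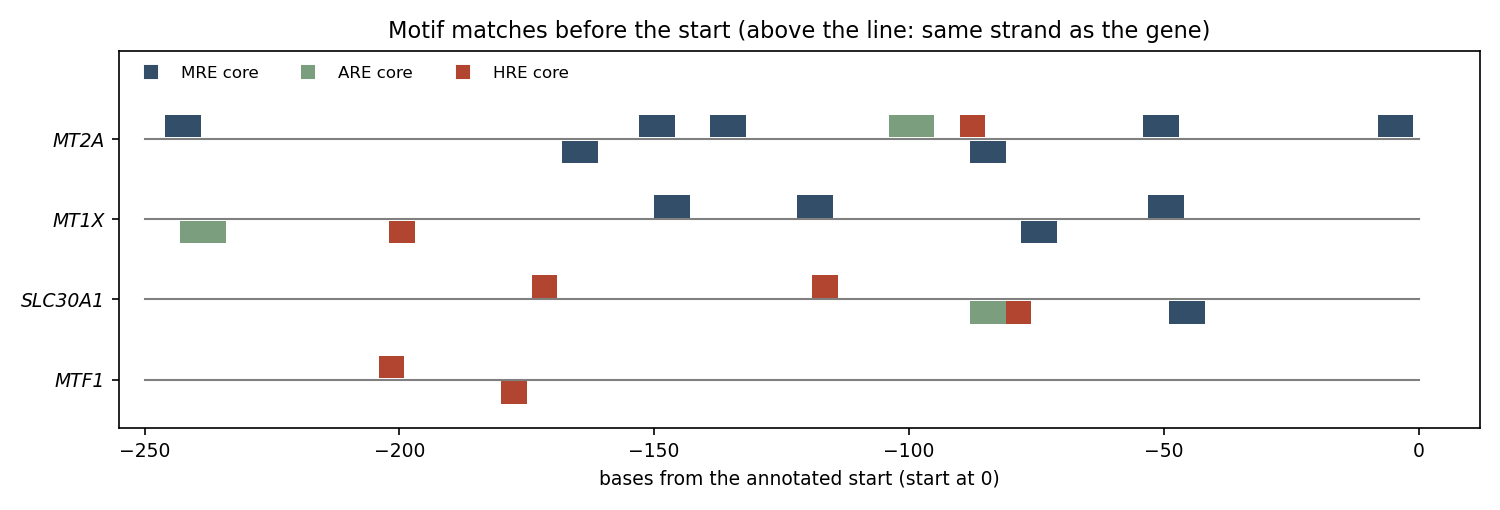
Matches of 3 motif cores in the 250 bases before the annotated start of MT2A, MT1X, SLC30A1 and MTF1 (horizontal axis: bases from the start). Boxes above a line lie on the strand of the gene and boxes below it on the other strand; MT2A has 7 MRE cores, MT1X 4, SLC30A1 1 and MTF1 0.

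FPKM values summed to 259184 to 272235 per library, and the number of fragments behind them is unknown. SFN replicate 2 stood apart from its group: across the 12662 tested genes its Pearson correlation on the log2 scale was 0.993 with each SFN+5-FU library, against 0.963 and 0.968 with SFN replicates 1 and 3, a description in which genes are not independent replicates. The SFN+5-FU libraries correlated with each other at 0.993 as well. Whether its label is right was not tested. It stays in its labelled group, every SFN mean and the comparison of SFN+5-FU with SFN include it unless said otherwise, and where leaving it out changes a call, a count or a sign, that value is given too. Epithelial markers were present, with EPCAM at 114 to 144 FPKM in all 9 libraries, while CEACAM5 was at 0.15 FPKM or less. The 7 epithelial markers summed to 1706 to 1721 FPKM in SFN+5-FU cells, 1765 to 2380 in SFN cells and 2548 to 2591 in control cells. Of the 6 tested epithelial markers, 0 rose and 5 fell in SFN+5-FU cells against control, where 28% of all tested genes fell. In SFN cells 0 rose and 3 fell, or 2 fell without SFN replicate 2, beside 22.5% and 26.9% of all genes lower. EPCAM was not among those that fell, while CDH1 averaged 5.18 FPKM in SFN+5-FU, 5.43 in SFN and 14.2 in control cells. Of 8 markers of other cell types the leukocyte gene PTPRC was at 0 in every library, and the 8 summed to 6.58 to 10.0 FPKM in SFN+5-FU, 3.31 to 6.45 in SFN and 2.94 to 3.58 in control. In that list CD68 rose and COL1A1 fell in both comparisons with control, the 6 others were not tested, and the part of any of these shifts in the results was not tested. In bulk RNA, fewer cells that express a gene and less RNA per cell cannot be told apart.

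MT2A, the most abundant metallothionein mRNA of these cells, was higher in treated cells. It stood at 306, 309 and 378 FPKM in SFN+5-FU replicates 1 to 3, at 284, 322 and 272 FPKM in SFN replicates 1 to 3, and at 228, 225 and 252 FPKM in control replicates 1 to 3. Every treated library lay above every control library, while the SFN+5-FU and SFN ranges overlapped. In SFN+5-FU cells MT2A averaged 331 ± 40.4 FPKM, against 235 ± 14.7 FPKM in control (mean ± SD, n = 3 each), a ratio of 1.41. On the log2(FPKM + 1) scale, used for every fold change here, it rose by 0.49 (SE 0.0987, limma adjusted p = 0.00205). In SFN cells it averaged 293 ± 25.9 FPKM (SD, n = 3) and rose by 0.31 (SE 0.0987, limma adjusted p = 0.0253). That SFN result missed the threshold when genes of any level were tested (adjusted p = 0.0715), with median-of-ratios scaling (0.0585), with GC content and length corrected for (0.106, at a log2 fold change of 0.20), without control replicate 1 (0.0808) and without control replicate 2 (0.0858). Over the other 17 alternatives it held, at adjusted p values from 0.009 up to 0.0489, the highest being without SFN replicate 2.

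MT1X, a metallothionein-1 isoform known to respond to zinc, had the largest decrease of the 6 tested genes in SFN+5-FU cells against control. In SFN cells its order against MT1F turned without SFN replicate 2, with log2 fold changes of -0.74 for MT1X and -0.84 for MT1F. Its values were 9.72, 8.33 and 10.0 FPKM in SFN+5-FU replicates 1 to 3, 22.6, 10.1 and 18.3 FPKM in SFN replicates 1 to 3, and 37.3, 34.2 and 32.9 FPKM in control replicates 1 to 3. No treated library reached the control range, and SFN replicate 2 lay just above the SFN+5-FU libraries. MT1X fell to 9.35 ± 0.898 FPKM in SFN+5-FU cells, against 34.8 ± 2.26 FPKM in control (SD, n = 3 each), a ratio of 0.269 and a log2 fold change of -1.79 (SE 0.228, limma adjusted p = 0.000164). In SFN cells it averaged 17.0 ± 6.34 FPKM (SD, n = 3), a log2 fold change of -1.06 against control (SE 0.228, limma adjusted p = 0.00444). Without SFN replicate 2 that change was -0.74 (limma adjusted p = 0.000347), with an SFN mean of 20.5 FPKM.

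MT1E, the second most abundant metallothionein mRNA here, was lower in SFN+5-FU cells and not in SFN cells taken as a group. It measured 40.9, 35.4 and 40.2 FPKM in SFN+5-FU replicates 1 to 3, 83.7, 41.7 and 69.2 FPKM in SFN replicates 1 to 3, and 68.7, 69.5 and 75.5 FPKM in control replicates 1 to 3. SFN replicate 1 lay above the control range, SFN replicate 3 within it, and SFN replicate 2 lay near the SFN+5-FU values. MT1E fell to 38.9 ± 3.00 FPKM in SFN+5-FU cells, against 71.2 ± 3.72 FPKM in control (SD, n = 3 each), by 0.86 on the log2 scale (SE 0.206, limma adjusted p = 0.00519). In SFN cells it averaged 64.9 ± 21.3 FPKM (SD, n = 3), with a log2 fold change against control of -0.19 (SE 0.206, limma adjusted p = 0.471). Without SFN replicate 2 the SFN mean was 76.4 FPKM and the log2 fold change was 0.10 (limma adjusted p = 0.393), so the sign rests on that library.

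MT1F, a metallothionein-1 isoform of low level here, fell in both treatments. It was at 1.86, 1.29 and 1.88 FPKM in SFN+5-FU replicates 1 to 3, at 2.26, 2.20 and 1.95 FPKM in SFN replicates 1 to 3, and at 4.46, 4.29 and 4.94 FPKM in control replicates 1 to 3. The 3 groups did not overlap, and SFN replicate 2 lay with the other SFN libraries for this gene. Its log2 fold change against control was -1.06 in SFN+5-FU cells (SE 0.104, limma adjusted p = 4.56e-05) and -0.83 in SFN cells (SE 0.104, limma adjusted p = 0.000271). The pseudocount of 1 shrinks these changes, which were -1.41 and -1.06 with a pseudocount of 0.1. MT1G, the isoform often reported as silenced by methylation in tumours, was at 0.14 FPKM or less in the 6 treated libraries and at 0, 0.19 and 0 FPKM in control replicates 1 to 3. It was below the filter of a mean of 1 FPKM, was not tested, and no difference was detectable at these values.

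**Figure D2:**
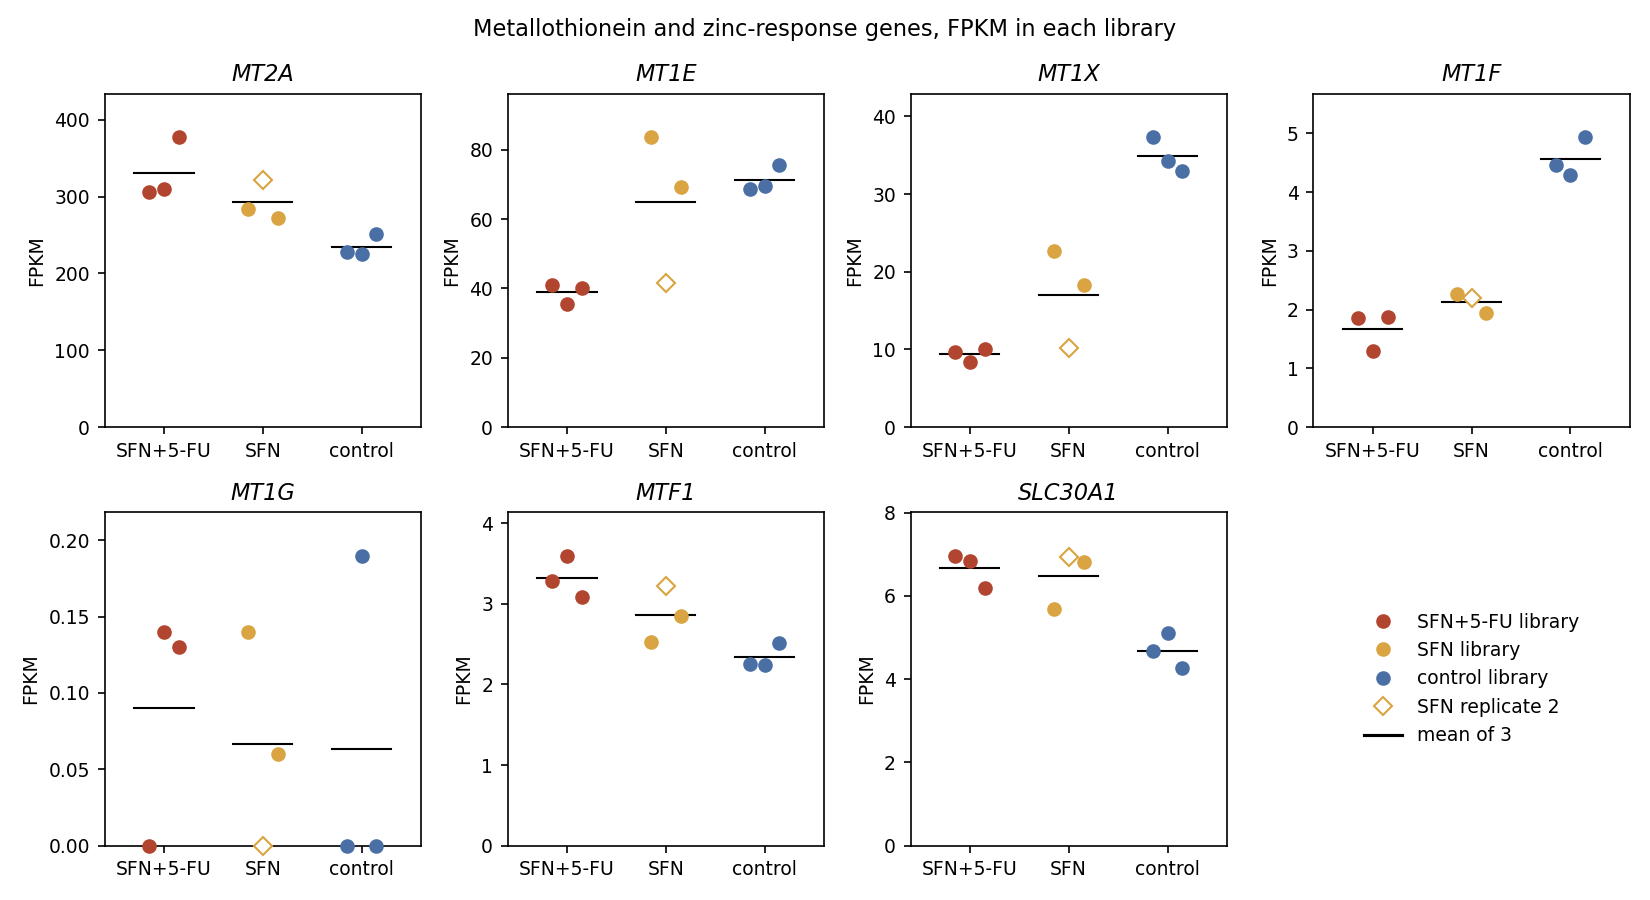
FPKM (vertical axes, each from 0) of the 7 genes in each library of SFN+5-FU, SFN and control cells; dots are libraries, the open diamond is SFN replicate 2 and lines are means of 3. The means of MT2A, MTF1 and SLC30A1 are highest in SFN+5-FU cells, where their values overlap those of SFN cells. MT1X and MT1F are lowest in SFN+5-FU cells, and for MT1E and MT1X the diamond (41.7 and 10.1 FPKM) lies beside the SFN+5-FU libraries.

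The make-up of the metallothionein mRNA pool shifted toward MT2A. A sum was taken over 13 metallothionein genes and pseudogenes, those looked up by name and found in the table. Further pseudogenes of the family were not looked up. The summed FPKM reached 384, 373 and 451 in SFN+5-FU replicates 1 to 3. In SFN replicates 1 to 3 it was 419, 400 and 380, and in control replicates 1 to 3 it was 356, 349 and 381. The 3 ranges overlapped. MT2A made up 82.1 ± 2.14% of the sum in SFN+5-FU cells, 73.3 ± 6.55% in SFN cells and 64.8 ± 1.14% in control cells (SD, n = 3 each). The genes other than MT2A together summed to 71.6 ± 7.50 FPKM in SFN+5-FU cells, 107 ± 28.8 in SFN cells and 127 ± 2.77 in control cells (SD, n = 3 each). In SFN replicate 2 that sum was 78.1 FPKM and the MT2A share 80.5%. SFN replicates 1 and 3 had sums of 136 and 108 FPKM, beside 124 to 129 in control, and shares of 67.7% and 71.7%. Each library held 31.5 to 37.7 times as much MT2A as MT1X in SFN+5-FU cells, 12.5 to 31.7 times in SFN cells and 6.10 to 7.64 times in control cells. The SFN value of 31.7 came from SFN replicate 2, and the other SFN libraries were at 12.5 and 14.9. These shares and ratios were not tested, since they combine genes whose own changes are given above.

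**Figure D3:**
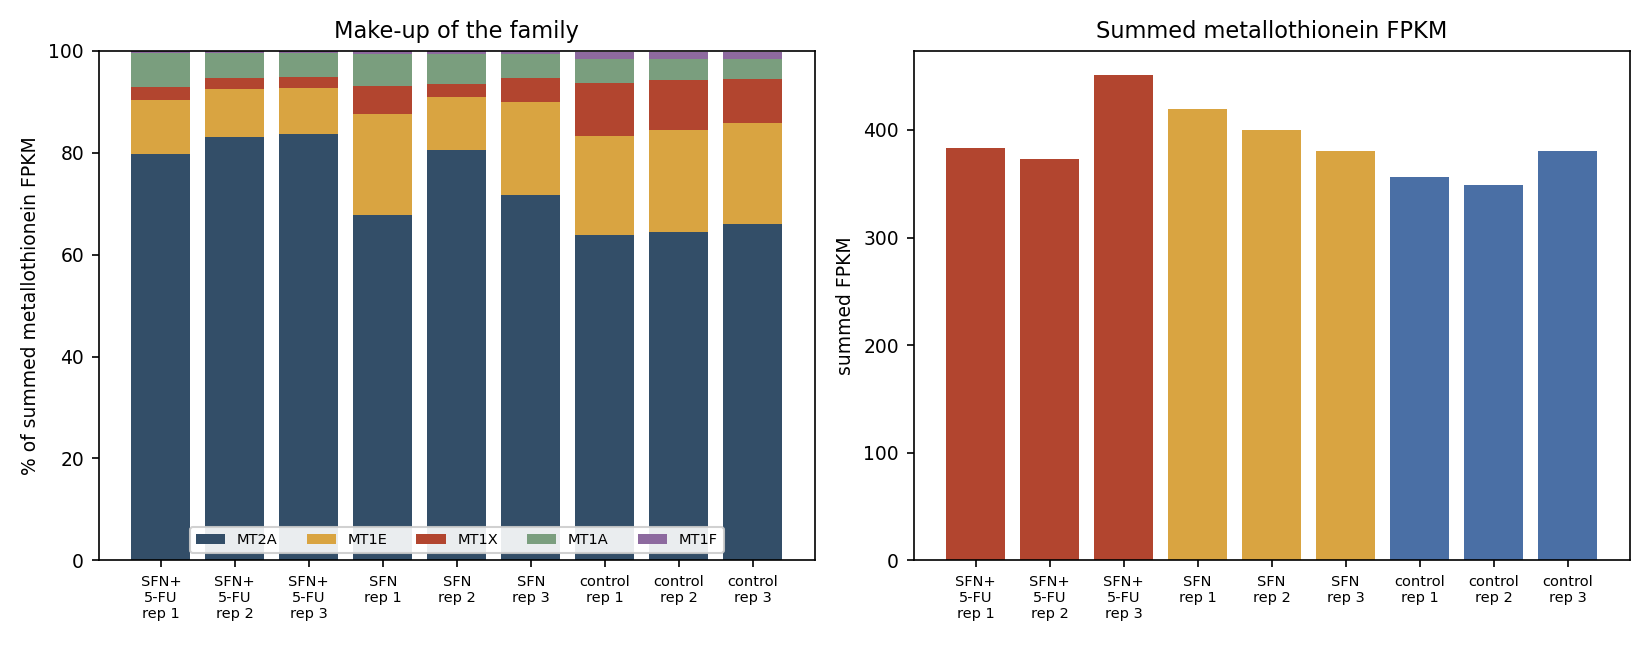
Left, the share of the summed metallothionein FPKM (%) taken by MT2A, MT1E, MT1X, MT1A and MT1F in each library; the remainder up to 100% is other family members. Right, the summed FPKM per library. MT2A takes 79.7 to 83.7% in SFN+5-FU libraries, 67.7 to 80.5% in SFN and 63.9 to 66.1% in control, while the sums run between 349 and 451 FPKM.

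Within each group the levels ran from MT2A over MT1E to the rest. MT1A, a further metallothionein-1 gene that is not one of the 7, averaged 21.4 ± 3.55 FPKM in SFN+5-FU cells, 22.8 ± 4.39 in SFN cells and 15.4 ± 1.34 in control cells (SD, n = 3 each). MT1X ranked above MT1A in every control library and below it in every SFN+5-FU library, whereas in SFN cells their ranges overlapped. In control cells MT1F (4.56 ± 0.337 FPKM) and SLC30A1 (4.68 ± 0.420 FPKM) did not differ beyond their spread (SD, n = 3 each). MT1F ranked below MTF1 in every SFN+5-FU and SFN library and above it in every control library, and MT1G was last in all 3 groups. MT1A rose against control by 0.44 in SFN+5-FU cells (SE 0.152, limma adjusted p = 0.0291) and by 0.52 in SFN cells (SE 0.152, limma adjusted p = 0.0186). Besides MT1A, 7 other metallothionein genes or pseudogenes of those looked up were in the table and none was tested. Among these MT1B, MT1H and MT1M were listed at 0 FPKM in all 9 libraries. MT3, the brain-enriched growth inhibitory form, was at 0.15, 0.06 and 0.17 FPKM in SFN+5-FU replicates 1 to 3, at 0.21, 0.22 and 0.09 FPKM in SFN replicates 1 to 3, and at 0.76, 0.98 and 0.50 FPKM in control replicates 1 to 3.

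MTF1, which encodes the zinc-sensing activator itself, was at a low mRNA level that was higher in SFN+5-FU cells. Its FPKM was 3.28, 3.60 and 3.09 in SFN+5-FU replicates 1 to 3, 2.53, 3.22 and 2.85 in SFN replicates 1 to 3, and 2.25, 2.24 and 2.52 in control replicates 1 to 3. The lowest SFN library lay only just above the highest control library. MTF1 rose by 0.37 in SFN+5-FU cells against control (SE 0.0883, limma adjusted p = 0.00478). In SFN cells the log2 fold change was 0.21 (SE 0.0883, limma adjusted p = 0.0741), past the threshold with quantile normalization, with library weights, after the GC and length correction and without SFN replicate 1 (adjusted p = 0.0189, 0.00884, 0.0178 and 0.0299). Over all alternatives the adjusted p ran from 0.00884 to 0.186. Entry of MTF-1 into the nucleus and binding of zinc, the steps that switch it on, are not seen in mRNA levels.

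SLC30A1, the exporter gene that MTF-1 is known to switch on, was higher in both treatments. It had 6.97, 6.84 and 6.19 FPKM in SFN+5-FU replicates 1 to 3, 5.68, 6.93 and 6.82 FPKM in SFN replicates 1 to 3, and 4.67, 5.11 and 4.27 FPKM in control replicates 1 to 3. Treated libraries all lay above the control range and overlapped each other. SLC30A1 rose by 0.43 in SFN+5-FU cells (SE 0.0922, limma adjusted p = 0.00273) and by 0.39 in SFN cells (SE 0.0922, limma adjusted p = 0.00674) against control.

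Counted together, 3 of the 6 tested genes rose in SFN+5-FU cells against control (MT2A, MTF1 and SLC30A1) and 3 fell (MT1E, MT1F and MT1X). Of all 12662 tested genes 66.2% were called in that comparison, 38.3% higher and 28% lower, so a call in itself does not set these genes apart. Against control, SFN called 4 of the 6, with MT2A and SLC30A1 higher and MT1F and MT1X lower, where 50% of all tested genes were called, 27.5% higher and 22.5% lower. Leaving out SFN replicate 2 kept both member counts, where 74.7% of all genes called in SFN+5-FU (43.4% higher and 31.3% lower) and 56.9% in SFN (30% higher and 26.9% lower). Both comparisons share the control libraries. The median log2 fold change of the 6 was -0.24 in SFN+5-FU and 0.01 in SFN, beside 0.10 and 0.05 over all tested genes. Without SFN replicate 2 the middle values of the 6 in SFN were MT1E at 0.10 and MTF1 at 0.14. The median over all tested genes was then 0.02, so the order of the 6 against all genes in SFN rests on that library.

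**Figure D4:**
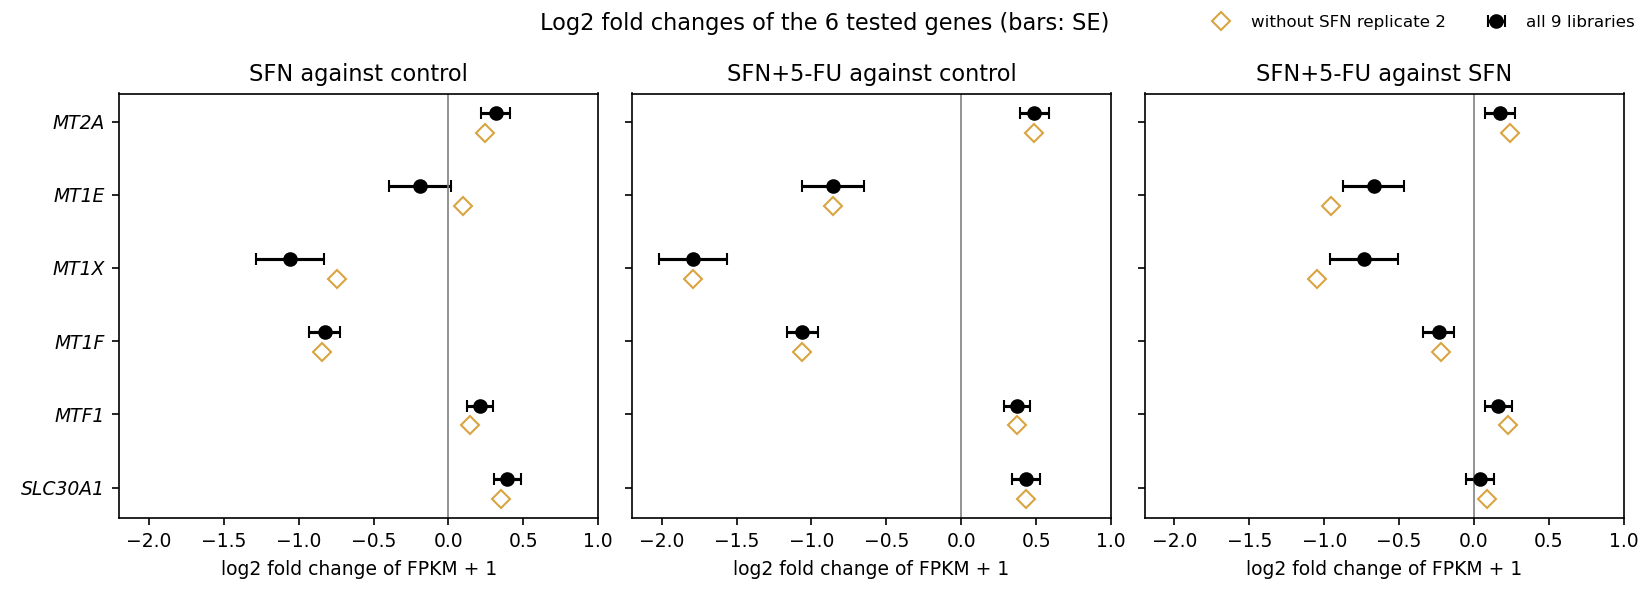
Log2 fold changes of FPKM + 1 (horizontal axis) of the 6 tested genes in 3 comparisons; filled circles with SE bars use all 9 libraries and open diamonds leave out SFN replicate 2. MT1X lies at -1.79 in SFN+5-FU against control, -1.06 in SFN against control and -0.74 in SFN+5-FU against SFN, and for MT1E in SFN against control the diamond is at 0.10 and the circle at -0.19.

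SFN+5-FU was set against SFN to ask what differs with 5-fluorouracil beside sulforaphane, and there the answer rests on SFN replicate 2. The sulforaphane dose in the combination is not given in the sources used here. A difference from 5-fluorouracil and one from another sulforaphane dose therefore cannot be told apart. With all libraries limma called none of the 6 genes, and 0.0079% of all tested genes. At an unadjusted p of 0.05, 3 of the 6 passed, all lower in SFN+5-FU (MT1E, MT1F and MT1X), as did 31.4% of all genes, and with library weights 4 of the 6 were called, as were 7432 of all 12662 tested genes. MT1E and MT1X had log2 fold changes of -0.67 (SE 0.206) and -0.74 (SE 0.228), each at a limma adjusted p of 0.134. Without SFN replicate 2, MT1E fell by 0.95 (limma adjusted p = 7.72e-05), MT1X fell by 1.05 (limma adjusted p = 8.54e-05) and MTF1 rose by 0.23 (limma adjusted p = 0.0400), where 51.2% of all tested genes were called, 29.8% higher and 21.4% lower. MT1F, MT2A and SLC30A1 had log2 fold changes of -0.22, 0.24 and 0.08 without that library, none past the threshold (limma adjusted p = 0.130, 0.0543 and 0.474).

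Other zinc transporters moved in both directions. Besides SLC30A1, 7 of the 8 exporter genes of the SLC30 (ZnT) family in the table were tested, and 2 rose and 2 fell in SFN+5-FU cells against control (2 and 1 in SFN cells). Leaving out SFN replicate 2 gave 2 and 3 in SFN+5-FU cells and 1 and 1 in SFN cells. The gene added in SFN+5-FU cells was SLC30A10 (limma adjusted p = 0.0326), listed here by family and not by the metal it carries. In SFN cells SLC30A7 was no longer past the threshold (limma adjusted p = 0.0714). Of all tested genes 66.2% were called in SFN+5-FU and 50% in SFN cells, or 74.7% and 56.9% without SFN replicate 2. The exporters' median log2 fold change was -0.17 in SFN+5-FU and 0.06 in SFN, beside 0.10 and 0.05 over all tested genes. SLC30A6 and SLC30A7, which carry zinc into the Golgi and the secretory pathway, rose by 0.66 and 0.47 in SFN+5-FU cells (limma adjusted p = 0.000176 and 0.00334). SLC30A6 had 11.04, 11.93 and 10.3 FPKM in SFN+5-FU replicates 1 to 3, 9.67, 11.3 and 10.7 FPKM in SFN replicates 1 to 3, and 6.49, 6.17 and 7.22 FPKM in control replicates 1 to 3, with no treated library in the control range. SLC30A3, a vesicular zinc transporter best known from neurons, fell by 0.76 to 0.80 ± 0.0557 FPKM in SFN+5-FU cells, against 2.04 ± 0.115 FPKM in control (SD, n = 3 each, limma adjusted p = 3.39e-05). SLC30A9, a mitochondrial zinc transporter, fell by 0.72 in SFN+5-FU cells (limma adjusted p = 0.00385), while in SFN cells its log2 fold change was -0.28 (limma adjusted p = 0.185). Leaving out SFN replicate 2 brought that SFN value to -0.06.

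Of the 14 importer genes of the SLC39 (ZIP) family 11 were tested. In SFN+5-FU cells 3 rose and 2 fell against control, and in SFN cells 2 rose and 3 fell, with median log2 fold changes of 0.01 in both, where 66.2% and 50% of all tested genes were called and the medians over them were 0.10 and 0.05. Without SFN replicate 2 the counts were 4 and 3 in SFN+5-FU cells and 2 and 1 in SFN cells. The shares of all tested genes called were then 74.7% and 56.9%. The middle importer in SFN cells was then SLC39A7 at 0.03, beside a median of 0.02 over all tested genes. SLC39A3, a plasma membrane importer, showed the largest increase. It had 9.17, 10.3 and 10.9 FPKM in SFN+5-FU replicates 1 to 3, 8.29, 10.54 and 7.52 FPKM in SFN replicates 1 to 3, and 5.06, 5.09 and 5.22 FPKM in control replicates 1 to 3. It rose by 0.86 in SFN+5-FU cells and by 0.66 in SFN cells (limma adjusted p = 0.000182 and 0.00118). SLC39A1, the most abundant importer mRNA of these cells, rose to 75.0 ± 3.95 FPKM in SFN+5-FU cells, against 52.1 ± 3.17 FPKM in control (SD, n = 3 each, limma adjusted p = 0.000268). SLC39A11 fell by 0.51 in SFN+5-FU cells and by 0.44 in SFN cells (limma adjusted p = 0.00127 and 0.00453). SLC39A10, an importer whose gene MTF-1 represses in mouse and zebrafish, fell to 1.65 ± 0.261 FPKM in SFN+5-FU cells, against 3.04 ± 0.338 FPKM in control (SD, n = 3 each, limma adjusted p = 0.00155). In SFN cells it fell by 0.33 (limma adjusted p = 0.0384), and the change was -0.25 with SFN replicate 2 left out, no longer past the threshold (limma adjusted p = 0.0828).

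**Figure D5:**
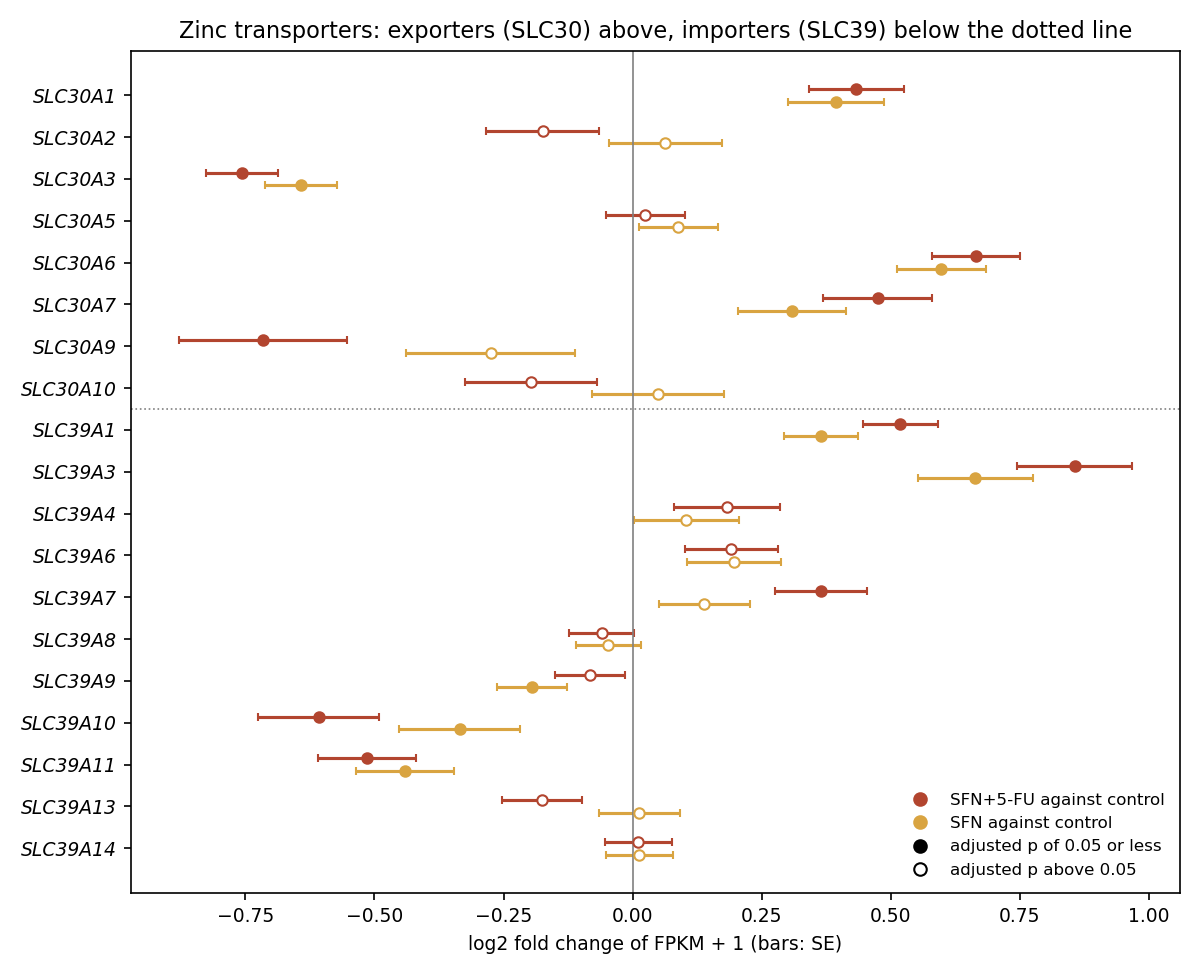
Log2 fold changes against control are on the horizontal axis, with SE bars. SLC30A1 and the other tested genes of the SLC30 (ZnT) family lie above the dotted line, and the 11 tested importers below it. Filled symbols have an adjusted p of 0.05 or less. SLC39A3 and SLC30A6 lie farthest right, at 0.86 and 0.66 in SFN+5-FU cells, and SLC30A3 and SLC30A9 farthest left, at -0.76 and -0.72.

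Copper, the other metal that metallothioneins hold, has its own transporters and chaperones. Of 16 copper-handling genes 15 were tested, and 8 rose and 4 fell in SFN+5-FU cells (6 and 5 in SFN cells, or 5 and 3 without SFN replicate 2), with median log2 fold changes of 0.19 and 0.15. Over all tested genes the shares called were 66.2% in SFN+5-FU and 50% in SFN cells and the medians 0.10 and 0.05. With SFN replicate 2 left out the share called in SFN cells was 56.9%. SLC31A2, an intracellular copper transporter related to CTR1, rose by 0.69 in SFN+5-FU cells and by 0.51 in SFN cells (limma adjusted p = 0.00198 and 0.0131). SCO1, a copper chaperone of cytochrome oxidase, rose by 0.50 and 0.54 (limma adjusted p = 0.000597 and 0.000648). ATP7B, the copper-exporting ATPase mutated in Wilson disease, fell by 0.64 and 0.43 (limma adjusted p = 0.000283 and 0.00378). MT-CO2, the mitochondrially encoded copper-binding oxidase subunit, fell by 0.49 and 0.26 (limma adjusted p = 0.00119 and 0.0397), the SFN change being -0.18 and not past the threshold once SFN replicate 2 was left out (limma adjusted p = 0.0751).

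Genes tied to MTF-1 in other work were few and mixed. Of 5 genes reported to depend on MTF-1, mainly in mouse, 3 were tested: 1 rose and 1 fell in each comparison with control. Over all tested genes 66.2% were called in SFN+5-FU and 50% in SFN cells. Without SFN replicate 2, 1 rose and 0 fell in SFN cells, where 56.9% of all tested genes were called. GCLC, the catalytic subunit of glutamate-cysteine ligase and also a known NRF2 target, had 6.81, 7.23 and 6.63 FPKM in SFN+5-FU replicates 1 to 3, 4.19, 6.42 and 4.48 FPKM in SFN replicates 1 to 3, and 3.53, 3.59 and 3.72 FPKM in control replicates 1 to 3. It rose by 0.77 in SFN+5-FU cells (limma adjusted p = 0.000550) and by 0.37 in SFN cells (limma adjusted p = 0.0325). With SFN replicate 2 left out the SFN change was 0.21 (limma adjusted p = 0.0183). The gene that fell was SLC39A10, given above. Of 3 genes for partners of MTF-1 at promoters, SP1 fell by 0.46 in SFN+5-FU cells and by 0.50 in SFN cells (limma adjusted p = 0.000183 and 0.000202). EP300 and HIF1A were not called in either, with log2 fold changes of 0.13 and 0.14 in SFN+5-FU and 0.01 and 0.10 in SFN. For EP300 the SFN change was -0.07 once SFN replicate 2 was left out (limma adjusted p = 0.358).

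The genes whose profile over the 9 libraries was nearest to each of the 6 were found by the root mean square difference of centred log2(FPKM + 1) values among 6808 genes with a mean of at least 5 FPKM. All values in this comparison rest on the same 9 libraries, so a likeness describes these libraries only. For MT1E the nearest was NES, the intermediate filament gene nestin, at 0.048, with SLC9A3 and PSTPIP2 next at 0.081 and 0.082. NES had 13.1, 11.2 and 12.1 FPKM in SFN+5-FU replicates 1 to 3, 27.97, 13.39 and 22.27 FPKM in SFN replicates 1 to 3, and 24.3, 23.1 and 25.0 FPKM in control replicates 1 to 3, again with SFN replicate 2 beside the SFN+5-FU libraries. For MT1X the nearest were GJB1, which encodes the gap junction protein connexin 32, the growth factor gene BMP7 and FAM156B, at 0.076, 0.083 and 0.085. For MT1F they were SCNN1A, a subunit of the epithelial sodium channel, MAPK8IP3 and ITGA7, at 0.098, 0.102 and 0.106. MT2A lay nearest to HOTAIRM1, a long noncoding RNA of the HOXA cluster, GET4 and GPSM3, at 0.055, 0.055 and 0.059. MTF1 lay nearest to HACD2, PGRMC1 and CIPC, at 0.032, 0.034 and 0.035, and SLC30A1 to SIK2, FIP1L1 and ADNP, at 0.056, 0.059 and 0.060. None of these 18 neighbours is another metallothionein, but the genes under study were themselves left out as candidates. Among the remaining metallothioneins that were looked up only MT1A had a mean of at least 5 FPKM. The search therefore cannot show whether the family members resemble each other.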

How the data were processed

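The authors deposited 1 FPKM value per gene and library, rounded to 2 decimals. The submitters' processing notes name fastp, StringTie and edgeR, without versions or roles. Which aligner, build and gene annotation were used is not given in the sources used here. Libraries were poly(A)-selected, strand-marked by dUTP and paired-end, per the labels' protocols. The smallest value above 0 is 0.01 FPKM in each library, so depth was not recovered and no counting interval is given.

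Names were found for 41002 of 41041 Ensembl identifiers, 29784 of them with a symbol. Genes with a mean of at least 1 FPKM over the 9 libraries (12662) were tested without regard to group. The scale was log2(FPKM + 1), which shrinks changes of low genes. A single limma model with trended variance over all 9 libraries (6 residual and 3.2 prior degrees of freedom) gave 3 contrasts. P values are two-sided and adjusted over all tested genes within a contrast by the Benjamini-Hochberg method, and "called", "rose" and "fell" mean an adjusted p of 0.05 or less. P values measure the spread between the replicates of 1 cell line.

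The 7 genes and the companion lists (other metallothioneins, zinc exporters and importers, copper handling, MTF-1 genes and partners) were chosen with earlier results of these data known. From each list the up to 4 called genes with the largest change against control are named. Sequences are from GENCODE release 29 and RefSeq, and windows shared between transcripts were counted over all GENCODE transcripts. R 4.3.3, limma 3.58.1, Python 3.11.15 and matplotlib 3.10.9 were used.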

Additional observations from a re-analysis of the deposited data

How the results depend on the processing

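Expression filter, pseudocount, library scaling, variance model, replicate block, GC and length correction and the libraries included were each changed, 22 alternatives in all, with 390 recomputed fold changes of the 6 tested genes. Of these 370 kept their direction and their side of the threshold. In 5, all of MT2A in SFN against control, the call was lost (values given in the report), in 11 a call was gained and in 4 the sign turned. The sign turned for MT1E in SFN against control, at 0.0963 without SFN replicate 2 and 0.0023 with library weights, and for SLC30A1 in SFN+5-FU against SFN, at -0.0401 without SFN replicate 1 and -0.0029 with quantile normalization. None of these 4 was called. Over single libraries left out, these 2 fold changes ran from -0.3978 to 0.0963 for MT1E and from -0.0401 to 0.0846 for SLC30A1. All 6 genes kept their calls in SFN+5-FU against control under each alternative in which they were tested.

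The count of the 6 genes called in SFN+5-FU against SFN was 0, and 4 with library weights and 0 to 3 without 1 library, the 3 being without SFN replicate 2. Genes called among all tested came to 3888 in SFN and 4903 in SFN+5-FU against control with a mean of at least 5 FPKM, where fewer genes are tested. In SFN+5-FU against SFN they came to 1, to 2 with a mean of at least 0.1 FPKM, to 7432 with library weights, to 0 with the 6 libraries compared and to 0 with the replicate block. Leaving out 1 library gave 0 to 6478, the highest without SFN replicate 2. Replicate numbers were not treated as pairing the samples: deviations of libraries with the same number correlated at -0.143 to 0.107, above 0.1 in 1 of 9 pairs. The replicate block changed no call of the 6 genes, with 4, 6 and 0 called in the 3 comparisons. With median-of-ratios scaling the calls over all genes were 2977 higher and 3300 lower in SFN against control, against 3478 and 2855 without it, and the cause was not tested. The median of all genes moved by at most 0.093 under any scaling.

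Depth is unknown, so no limit of detection can be given for MT1G or the other genes near 0 FPKM. Most genes are called against control, so a call says little about a single gene beyond its size and error. mRNA levels do not measure zinc, metallothionein protein or MTF-1 activity.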
